A study of Mus musculus with 19 samples.

Results

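Fat cells lie between and around the fibres of a skeletal muscle, and RNA taken from a whole muscle holds the transcripts of both. The genes described here are 9 products of adipocytes, listed by name: the secreted factors Adipoq (adiponectin), Cfd (adipsin), Retn (resistin) and Lep (leptin), the fatty acid carrier Fabp4, the stearoyl-CoA desaturase Scd1, the lipid droplet proteins Plin1 and Cidec, and the nuclear receptor Pparg, which drives fat cell differentiation. Of these, 7 had probe sets with a single gene symbol, 11 probe sets in all, among 12393 such genes on the array. Cfd and Plin1 were not analysed here. The brightest probe set of each gene, by its mean over 19 arrays, stood for the gene.

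Each array carried RNA from the tibialis anterior, a muscle of the lower leg, of 129/SVE mice. The groups were Des(-/-) desmin knockout mice of 12 to 14 months (aged KO, 4 arrays), wild-type mice of that age (aged WT, 5 arrays), Des(-/-) mice of 7 to 9 weeks (adult KO, 5 arrays) and wild-type mice of that age (adult WT, 5 arrays). Desmin is the intermediate filament protein of muscle. All muscles, wild-type ones included, had performed 50 eccentric contractions 12 h earlier, and no rested muscle was analysed. Nothing in the labels ties each array to its own mouse. The p-values therefore reflect array-to-array spread, part of which may be technical.

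Adiponectin, resistin and leptin are hormones that fat cells release into the blood. Fabp4 carries fatty acids inside fat cells, and is also made by capillary endothelium and macrophages. Scd1 introduces the double bond that turns stearate into oleate, and Cidec lets lipid droplets fuse and grow. Pparg acts with the C/EBP factors on the promoters of many of these genes.

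The promoter table from RefSeq (GRCm38.p6) held 5 of the 7 measured genes, with 8 upstream windows of 250 bases between them. Both strands were searched for the C/EBP palindrome TTGCGCAA and for the CCAAT box CCAAT. The palindrome was present in 1 of the 5 genes, Lep, and in 0.164% of all 32851 windows. A CCAAT box was present in 2 of them, Adipoq and Pparg, and in 33.8% of all windows. The windows of Adipoq, the gene with the widest spread here, and of Lep, the only one with the palindrome, follow. Capitals mark the CCAAT boxes of Adipoq, which start 34, 27 and 7 bases before the transcript start on one strand or the other, and the palindrome of Lep, which starts 55 bases before it. A match describes letters, not a bound site.
Adipoq, chr16:23146286-23146535, plus strand: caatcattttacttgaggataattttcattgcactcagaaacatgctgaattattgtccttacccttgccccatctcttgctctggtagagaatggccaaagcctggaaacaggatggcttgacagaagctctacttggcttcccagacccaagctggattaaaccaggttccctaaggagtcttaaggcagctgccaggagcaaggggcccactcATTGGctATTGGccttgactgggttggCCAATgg
Lep, chr6:29059971-29060220, plus strand: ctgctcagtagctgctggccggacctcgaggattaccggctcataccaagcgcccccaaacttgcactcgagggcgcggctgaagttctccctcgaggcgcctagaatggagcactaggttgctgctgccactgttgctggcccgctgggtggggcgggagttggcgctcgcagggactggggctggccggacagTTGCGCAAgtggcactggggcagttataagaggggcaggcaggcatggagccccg

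The arrays were not alike, and several results below depend on it. The dap poly-A control, an RNA spiked in before labelling, gave over 100 units on 8 arrays, which were all 5 aged WT arrays and adult KO replicates 3, 4 and 5, and under that on the other 11. The same 8 arrays read 5835 to 19660 on an 18S rRNA control probe set, against 29.1 to 181 on the other 11. The 2 sets are called the labelling batch here. That name stands only for the split by control signal, and the labels name no batch. No aged KO and no adult WT array carried control signal, so aged KO against aged WT, and aged against adult WT, lie across the batch. Adult KO is the one group with arrays on both sides, 3 with the signal and 2 without, and a batch term in the model rests on it. Aged KO replicates 2 and 3 had Gapdh 3′ to 5′ ratios of 8.61 and 5.01, against 0.766 to 0.968 on all other arrays. The brighter Des probe set read 72.7 to 879 on KO arrays and 10749 to 22313 on WT arrays, and the summed intensity of 14 skeletal muscle markers lay between 250376 and 499545 on every array.

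Values are linear MAS5 intensities, the brightness of a probe set, and levels of different genes cannot be set against each other. For tests they were put on a log2 scale and quantile normalized, and limma was fitted over the 7436 brighter genes, with Benjamini-Hochberg adjusted p under 0.05 as the threshold. Of the 7 genes, 3 (Adipoq, Scd1 and Fabp4) were bright enough on average to be tested. Retn, Lep, Pparg and Cidec fell below the filter, and their tests come from a fit without it.

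Fabp4 was the one gene of the list that passed the test in any comparison. It was lower in aged KO than in aged WT muscle. In the other 3 pairwise comparisons and in the genotype by age interaction none of the 3 tested genes passed. Over all tested genes the share called was 29.5% for aged KO against aged WT, 16.7% for adult KO against adult WT, 7.44% for aged against adult KO, 38.9% for aged against adult WT and 25.1% for the interaction. At an unadjusted p under 0.05, Scd1 passed for aged against adult KO, where 23.3% of tested genes did, and Fabp4 for aged against adult WT, where 48.8% did. Fabp4 also passed there for aged KO against aged WT (41.2% of tested genes). None of the 3 passed for adult KO against adult WT (31.7%) or for the interaction (37.9%).

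**Figure D1:**
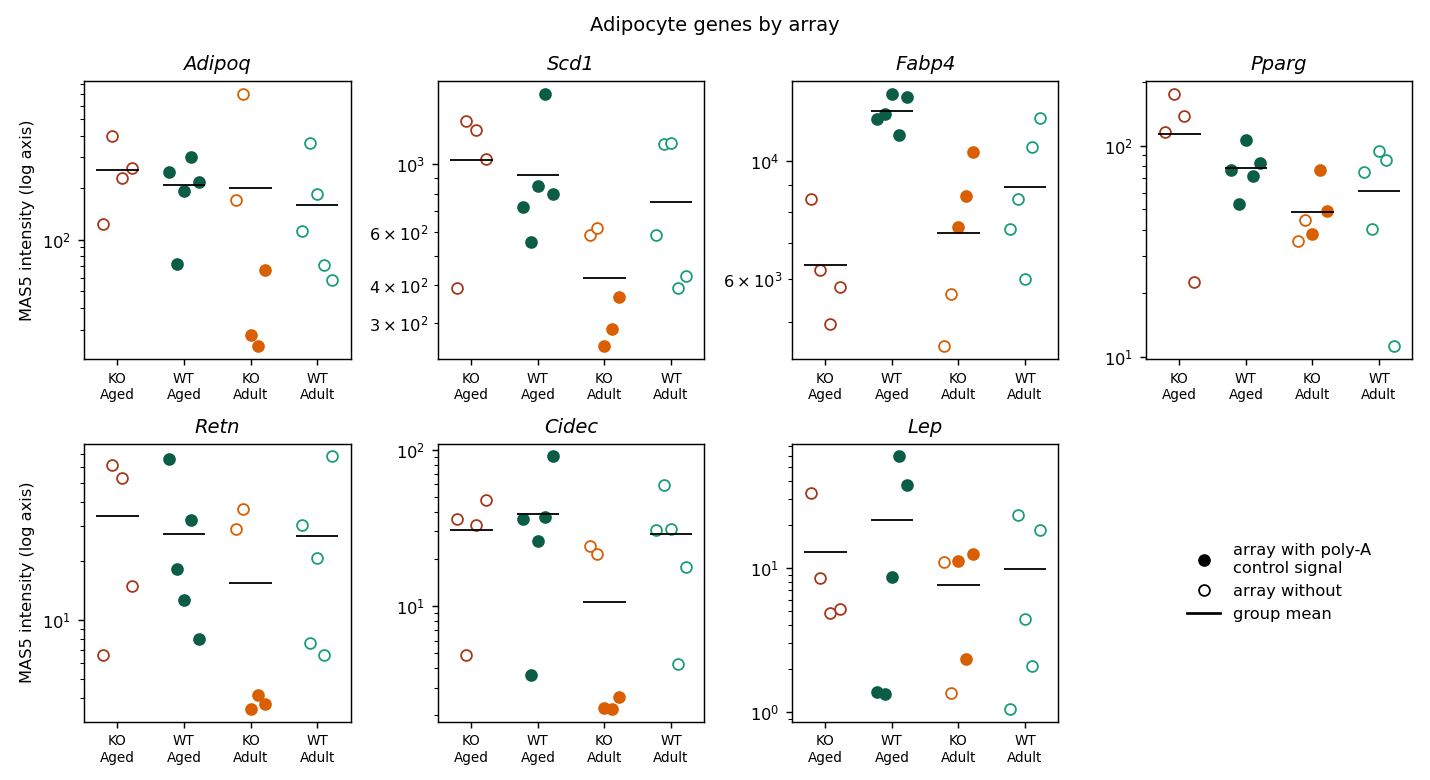
MAS5 intensity (log axis) of the 7 measured adipocyte genes on each of the 19 arrays, by group, with the group mean as a line. Filled points are arrays with poly-A control signal. For Fabp4 all 4 aged KO arrays lie below all 5 aged WT arrays, while Adipoq spans from 24.0 to 703 within adult KO.

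Adipoq lies on chromosome 16 (23146536 to 23157968, GRCm38.p6). It read 124, 401, 227 and 261 in aged KO muscle, against 248, 72.4, 192, 303 and 215 in aged WT muscle. In adult KO muscle it read 170.5, 703, 28.0, 24.0 and 66.6, against 112, 363, 185, 71.5 and 58.6 in adult WT muscle. The groups overlapped in every comparison, and the highest and the lowest reading of the whole series both came from adult KO arrays. Group means were 253 ± 114 in aged KO (SD, n = 4), 206 ± 85.7 in aged WT (SD, n = 5), 198 ± 288 in adult KO (SD, n = 5) and 158 ± 125 in adult WT (SD, n = 5). No neighbours in that order differed beyond their spread.

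The log2 difference of Adipoq was 0.21 for aged KO minus aged WT (95% interval -1.40 to 1.82, limma adjusted p = 0.860). It was -0.16 for adult KO minus adult WT (-1.67 to 1.36, limma adjusted p = 0.903). By age it was 1.09 within KO (-0.52 to 2.69, limma adjusted p = 0.434) and 0.72 within WT (-0.80 to 2.23, limma adjusted p = 0.443). These intervals admit changes of more than 1 log2 unit in either direction for both genotype comparisons. With the labelling batch in the model the genotype differences were -2.83 in aged muscle (limma adjusted p = 0.0889) and 1.66 in adult muscle (limma adjusted p = 0.169), so the sign of each turned and neither passed.

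Scd1, on chromosome 19 (44394450 to 44407709), read 392, 1389, 1299 and 1041 in aged KO muscle, against 720.4, 553, 849.6, 1704 and 796 in aged WT muscle. In adult KO muscle it read 584, 619, 252, 288 and 367, against 584, 1166, 1174, 391 and 428 in adult WT muscle. Of the aged KO arrays 3 lay above all adult KO arrays, and the remaining one lay inside their range. Means were 1030.2 ± 450.3 in aged KO (SD, n = 4), 924 ± 449.8 in aged WT (SD, n = 5), 422 ± 169 in adult KO (SD, n = 5) and 748 ± 392 in adult WT (SD, n = 5), and all groups overlapped.

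For Scd1 the aged minus adult difference within KO was 1.09 on the log2 scale (95% interval 0.15 to 2.04), and it missed the threshold (limma adjusted p = 0.146). Without aged KO replicate 1, the array at 392, it was 1.53 and passed (limma adjusted p = 0.0363). Of the 19 arrays left out in turn, this was the 1 whose omission gave a call. Without aged KO replicate 2 the difference was 0.89 and did not pass. Aged KO replicates 2 and 3, at 1389 and 1299, are the arrays of high Gapdh ratio, 8.61 and 5.01. With the batch term the aged minus adult difference within KO was 0.47 (limma adjusted p = 0.593). The adult KO minus adult WT difference was -0.65 (-1.54 to 0.24, limma adjusted p = 0.305), and the aged one was 0.06 (-0.89 to 1.004, limma adjusted p = 0.938). The second Scd1 probe set was dim, at 21.7 to 75.1 over all arrays, and its aged minus adult difference within KO was -0.19 (limma adjusted p = 0.80 over 20380 probe sets).

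Fabp4 lies on chromosome 3 (10204342 to 10208616) and was bright on every array. It read 8478, 6250.2, 4956 and 5808 in aged KO muscle, against 11964, 12238, 13339.7, 11165 and 13164 in aged WT muscle. In adult KO muscle it read 4493, 5640.5, 7517, 8600.3 and 10382, against 7444, 8474, 6012, 10589 and 12037 in adult WT muscle. The aged groups did not overlap, as was the case for 31.2% of tested genes, and the adult groups did. Means were 6373 ± 1503 in aged KO (SD, n = 4), 12374 ± 895 in aged WT (SD, n = 5), 7326 ± 2338 in adult KO (SD, n = 5) and 8911 ± 2415 in adult WT (SD, n = 5). In order of level aged WT came first, then adult WT, adult KO and aged KO. The last 3 overlapped with each other, and adult WT also overlapped aged WT.

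In aged muscle Fabp4 fell by 0.97 on the log2 scale in KO relative to WT (SE 0.25, 95% interval -1.50 to -0.44, limma adjusted p = 0.00790), and WT stood 1.96-fold above KO. The call held when each of the 19 arrays was left out in turn, with differences of -1.15 to -0.85. It was lost with the batch term, where the difference was -0.08 (SE 0.34, limma adjusted p = 0.903) and 5.49% of tested genes were called, and without the 2 aged KO arrays of high Gapdh ratio, where it was -0.71 (limma adjusted p = 0.142). Aged genotype and labelling batch cannot be told apart within these 2 groups alone. In whole muscle, fewer cells that make a transcript and less of it per cell cannot be told apart either.

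In adult muscle the KO minus WT difference of Fabp4 was -0.34 (95% interval -0.84 to 0.16, limma adjusted p = 0.343). With the batch term it was -0.87 (SE 0.25), which passed (limma adjusted p = 0.0479), as did 6.67% of tested genes. That value rests on adult KO replicates 1 and 2, at 4493 and 5640.5, which lay below all 5 adult WT arrays. With only the arrays without control signal the same difference did not pass (limma adjusted p = 0.178). By age the difference was 0.58 within WT (0.08 to 1.08, limma adjusted p = 0.0619) and -0.06 within KO (-0.59 to 0.47, limma adjusted p = 0.926). The interaction was -0.63 (-1.36 to 0.09, limma adjusted p = 0.187).

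Without the batch term all 4 Fabp4 probe sets were lower in aged KO than in aged WT. In other comparisons they did not all repeat the pattern of the brightest. The next brightest read 2081, 1764, 1351 and 1815 in aged KO muscle, against 4169.7, 5185, 5768, 5194 and 5804 in aged WT muscle. It read 1839, 1787, 2312, 3457 and 2056 in adult KO muscle, against 2736, 2825, 817, 1428 and 1737 in adult WT muscle. All 5 aged WT arrays lay above every other array, including the 3 adult KO arrays that share the poly-A control signal. Tested singly among 20380 probe sets, it was lower in aged KO than in aged WT (-1.59, limma adjusted p = 0.00183), higher in aged than in adult WT (1.54, limma adjusted p = 0.00140), and its interaction passed (-1.92, limma adjusted p = 0.00544). With the batch term these were -1.15, 1.105 and -1.22, and none passed (limma adjusted p = 0.243, 0.470 and 0.526). With that term 0.0941% of tested genes were called for aged against adult WT, 9.98% for aged against adult KO and 0.0269% for the interaction, and none of Adipoq, Scd1 and Fabp4 was among them. The 2 dimmer Fabp4 probe sets passed in no comparison. For aged KO minus aged WT they gave -1.31 and -1.66 (limma adjusted p = 0.178 and 0.0567). With the batch term these were 0.56 and -0.05 (limma adjusted p = 0.813 and 0.986).

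**Figure D2:**
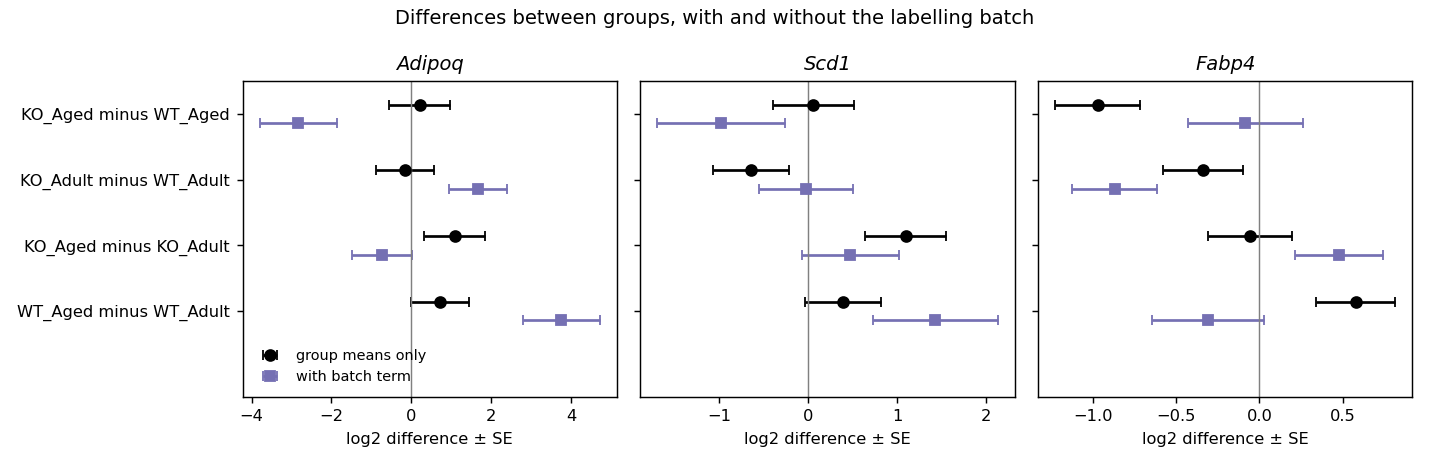
Log2 differences between groups for Adipoq, Scd1 and Fabp4, with standard errors as bars, from the model of group means (circles) and from the model with the labelling batch as a term (squares). The Fabp4 difference for aged KO minus aged WT is -0.97 without the term and -0.08 with it, and the Adipoq genotype differences change sign.

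The 4 dimmer genes gave no call in any comparison in the fit without a filter, where 7.76% of 12393 genes were called for adult KO against adult WT, 17.5% for aged KO against aged WT, 2.88% for aged against adult KO, 22.7% for aged against adult WT and 14.3% for the interaction. None of them passed at an unadjusted p under 0.05 either, which 23%, 31.9%, 18.7%, 36.4% and 30.1% of genes did in those comparisons. Their limma adjusted p-values ran from 0.354 to 0.970. A fold change of such dim genes is understated on this scale, since log2 was taken after adding 4.76 units.

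Retn read 6.59, 61.6, 53.1 and 14.8 in aged KO, against 66.2, 18.2, 12.6, 32.1 and 8.01 in aged WT. It read 29.0, 36.6, 3.49, 4.12 and 3.71 in adult KO, against 30.3, 7.62, 20.5, 6.63 and 68.2 in adult WT. The 3 adult KO arrays at about 4 units are those with poly-A control signal. Lep read 33.1, 8.51, 4.89 and 5.20 in aged KO, against 1.37, 1.34, 8.67, 59.7 and 37.6 in aged WT. It read 10.95, 1.36, 11.2, 2.32 and 12.6 in adult KO, against 1.05, 23.3, 4.43, 2.08 and 18.4 in adult WT. Several Lep readings lay close to 1, the lowest value in the table, so its order between arrays carries little.

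Pparg read 116, 176, 139 and 22.6 in aged KO, against 76.8, 52.9, 106, 71.5 and 83.1 in aged WT. It read 35.3, 44.2, 38.1, 76.4 and 48.9 in adult KO, against 75.1, 40.3, 94.1, 85.98 and 11.2 in adult WT. Of the aged KO arrays 3 lay above all aged WT arrays and 1 lay below them all. Cidec read 36.3, 4.84, 33.1 and 47.7 in aged KO, against 36.0, 3.63, 25.9, 36.9 and 90.6 in aged WT. It read 24.1, 21.6, 2.24, 2.20 and 2.61 in adult KO, against 30.7, 59.9, 31.3, 4.28 and 17.7 in adult WT. The adult KO arrays again split by the control signal, as for Retn.

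Most tested genes split within adult KO by the control signal. On the normalized scale the 3 arrays with the signal and the 2 without did not overlap for 61.2% of the 7436 tested genes and for 49.9% of all 12393, and 6 of the 7 adipocyte genes, all but Lep, were among them. On the 3 arrays with control signal Adipoq read 24.0 to 66.6, against 170.5 and 703 on the 2 without. Scd1 read 252 to 367 with it, against 584 and 619 without. Fabp4 ran the other way, at 7517 to 10382 with it, against 4493 and 5640.5 without. In log2 terms the arrays with signal minus those without differed by -3.04 for Adipoq, -1.91 for Retn, -1.78 for Cidec, -1.04 for Scd1 and 0.89 for Fabp4. The intensities of Pparg and Lep overlapped between the 2 sets. What set these arrays apart was not tested.

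The spread between arrays of a group was wide for most of these genes. The within-group SD of Adipoq was 1.26 on the log2 scale, which put it at percentile 99.5 of tested genes, whose median was 0.36. That SD pools the groups. By group the SD of Adipoq was 1.88 in adult KO, the group with arrays on both sides of the labelling batch. It was 1.19 in adult WT, 0.79 in aged KO and 0.74 in aged WT. Scd1 had an SD of 0.73 (percentile 93.1) and Fabp4 one of 0.39 (percentile 58.6). Retn, Lep, Pparg and Cidec had SDs of 0.96 to 1.14 on that scale. Among all 12393 genes these stood at percentiles 97.9 for Retn, 98.7 for Lep, 93.4 for Pparg and 98.1 for Cidec. The highest Adipoq reading over the lowest was 3.23 within aged KO, 4.19 within aged WT, 29.3 within adult KO and 6.19 within adult WT.

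**Figure D3:**
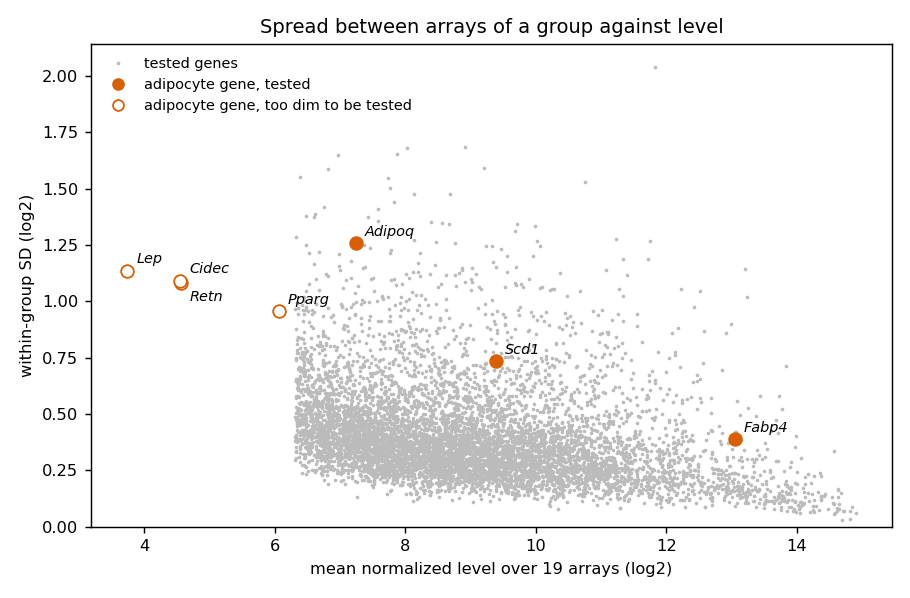
Within-group SD against mean normalized level, both in log2 units, for the 7436 tested genes (grey) and the 7 adipocyte genes (orange, open where too dim to be tested). Adipoq, at an SD of 1.26, stands at the upper edge of genes of its level, and Fabp4, at 0.39, is among the brightest genes.

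Each array's deviation from its group mean was then compared between genes, over 19 arrays. These correlations are descriptions, since all genes of an array share its RNA, labelling and scan. Adipoq and Scd1 deviated together, with Pearson r = 0.80 and Spearman rho = 0.86. Without the 2 arrays farthest from the median of Adipoq, r was 0.87, and it was 0.69 on the 8 arrays with control signal and 0.82 on the 11 without. Adipoq and Cidec had r = 0.60 and rho = 0.59, with r = 0.72 on the arrays with control signal and 0.30 on those without. Adipoq and Retn had r = 0.40 and rho = 0.37, with r = 0.25 and 0.04 on those 2 sets. Adipoq had r = 0.10 with Pparg, 0.18 on the arrays with control signal and 0.31 on those without. It had r = 0.02 with Lep, 0.62 with control signal and -0.10 without.

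Fabp4 deviated against Adipoq (r = -0.65, rho = -0.71) and against Scd1 (r = -0.74, rho = -0.74). For Fabp4 and Adipoq, r was -0.54 on the arrays without control signal and 0.43 on those with it, and for Fabp4 and Scd1 it was -0.85 and 0.08. Of 28 tested genes of a wider adipocyte list, described further down, 18 had r below 0 with Fabp4 and above 0 with Adipoq, 9 the reverse and 1 the same sign with both. Their r with Fabp4 ran from -0.80 for Agt, the angiotensin precursor, to 0.82 for Lpl, the lipase that frees fatty acids from lipoproteins, both named after their values were seen.

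The leading direction of within-group variance over the other tested genes, its first principal component, held 46.5% of that variance. The deviation of Adipoq had r = 0.86 with it, Scd1 r = 0.81 and Fabp4 r = -0.87. For Fabp4 it was -0.85 on the arrays without control signal and 0.04 on those with it. Of the tested genes 2714, or 36.5%, had an absolute r of at least 0.7 with the component. Apart from that, 1037 other tested genes, 13.9%, had r of at least 0.7 with Adipoq itself. Whether the amount of fat differed between muscles was not tested.

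**Figure D4:**
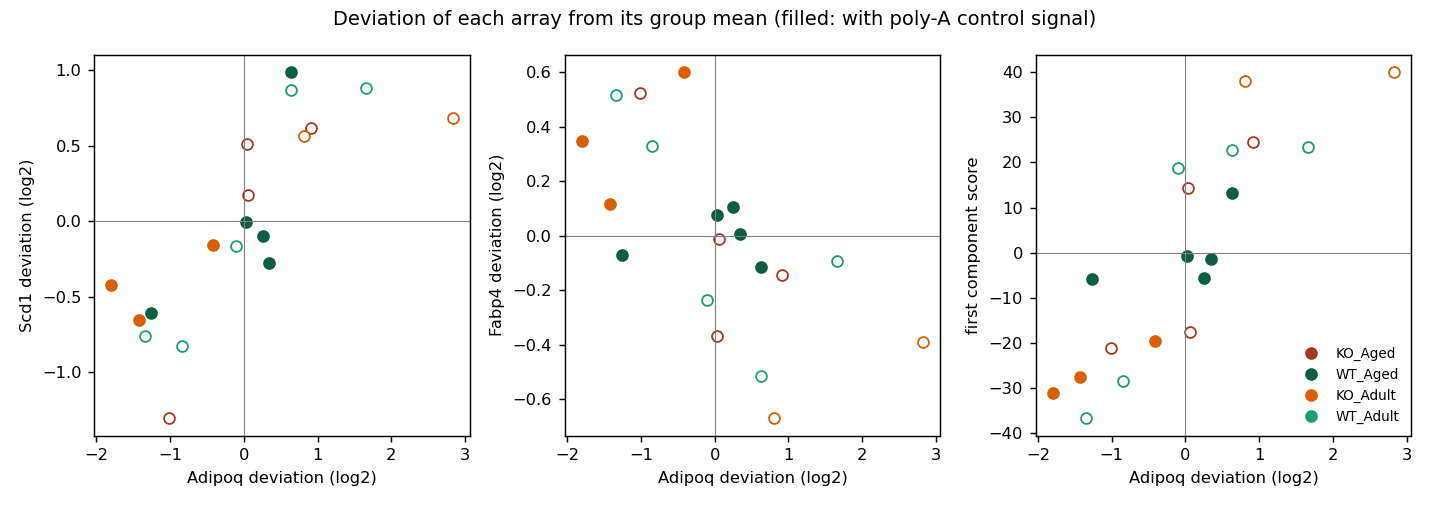
Deviation of each array from its group mean (log2) in Adipoq on the horizontal axis, against that of Scd1, that of Fabp4, and the array's score on the first component of within-group variance, for 19 arrays. Filled points carry poly-A control signal. Scd1 and the component rise with Adipoq (r = 0.80 and 0.86) and Fabp4 runs against it (r = -0.65).

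The 10 genes whose deviations were most like the mean deviation of Adipoq, Scd1 and Fabp4 over the 19 arrays were Ctsh (r = 0.90), Fndc1 (0.90), Cpxm2 (0.89), Dnajc12 (0.89), Gnb5 (0.89), Psmg1 (0.89), Slc35f6 (0.89), Npc2 (0.88), Cby1 (0.88) and Serpinf1 (0.88). That mean mostly followed Adipoq (r = 0.97) and Scd1 (0.88), while Fabp4 itself ran against it (-0.59). Likeness to the mean is therefore not likeness to Fabp4. Ctsh is a lysosomal protease, Npc2 a lysosomal cholesterol-binding protein, Psmg1 a proteasome assembly factor and Serpinf1 a secreted serpin. None is a gene that adipocytes alone express. Of all listed marker genes, Tnmd, listed here as a tendon marker, was the one among the nearest 50 (r = 0.86, rank 22). All 4 tested tendon markers had r of 0.77 to 0.82 with Adipoq. For the 28 tested genes of the wider adipocyte list that r ran from -0.84 to 0.76.

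A wider list of 42 adipocyte genes, chosen with results of these data known, had 37 with a probe set and 28 tested. For aged KO against aged WT, 3 were higher and 5 lower, where 16.9% of tested genes were higher and 12.5% lower. For adult KO against adult WT, 0 were higher and 5 lower (7.32% and 9.37% of tested genes). For aged against adult WT, 4 were higher and 7 lower (18.1% and 20.8%), and for the interaction 4 were higher and 3 lower (14.3% and 10.8%). For aged against adult KO limma called none (3.68% and 3.75%), and 9 had an unadjusted p under 0.05 (23.3% of tested genes). The list's median log2 difference was 0.01 in aged and -0.325 in adult muscle between KO and WT, beside 0.07 and 0.04 over all tested genes. With the batch term the counts were 0 higher and 2 lower for both genotype comparisons. Of all tested genes that term left 5.49% called in aged and 6.67% in adult muscle, in either direction.

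The members of that list with the smallest p-values are also expressed by muscle fibres or vessels. Cav1, the coat protein of caveolae, was lower in KO in adult muscle (-0.997, limma adjusted p = 7.48e-05), and with the batch term it still was (-1.0004, limma adjusted p = 0.00224). Slc2a4, the insulin-responsive glucose transporter, was lower in aged than in adult WT (-1.24, limma adjusted p = 5.52e-05). Adipor2, a receptor for adiponectin, fell by 1.09 in the same comparison (limma adjusted p = 8.81e-05), and the lipase Pnpla2 fell by 1.67 (limma adjusted p = 0.000367). None of the last 3 passed with the batch term (limma adjusted p = 0.159, 0.281 and 0.395).

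The factor Cebpb, taken out of the list after its values were seen, was lower in aged KO than in aged WT (-1.48, limma adjusted p = 0.00149) and -0.23 with the batch term (limma adjusted p = 0.729). Cebpa, its partner in mature fat cells, differed by 0.63 in the same comparison and did not pass (limma adjusted p = 0.308). The deviation of Cebpa had r = 0.72 with that of Adipoq and that of Cebpb r = -0.84, which was the lowest of the list, whose highest was 0.76.

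Among 11 tested lipogenic enzymes, which build fatty acids, 3 were higher and 1 lower in aged KO than in aged WT. Of all tested genes 16.9% were higher and 12.5% lower there. Acss2, which activates acetate, was higher (1.36, limma adjusted p = 0.000132), and with the batch term it was 0.91 (limma adjusted p = 0.0974). With the term 1 of the 11 was higher and 0 lower in aged KO, where 5.49% of tested genes were called in either direction. In adult KO 0 were higher and 2 lower (7.32% and 9.37% of tested genes). The 2 were Elovl5 (-0.71, limma adjusted p = 0.00682) and Acly (-0.68, limma adjusted p = 0.0267). With that term in the model Elovl5 was still lower (-0.78, limma adjusted p = 0.0392), and Acly, at -0.49, no longer passed (limma adjusted p = 0.258). Under it 2 of the 11 were lower and 0 higher in adult KO, where 6.67% of tested genes were called in either direction. The second was Me1 (-1.29, limma adjusted p = 0.0236), named after its values were seen. Of the perilipins, the proteins that coat lipid droplets, 4 were tested. Plin3 was lower in adult KO than in adult WT (-1.15, limma adjusted p = 0.00258), and -0.74 with the batch term (limma adjusted p = 0.110). With that term Plin3 was lower in aged KO than in aged WT (-1.61, limma adjusted p = 0.0202), where 5.49% of tested genes were called. It was then also lower in aged than in adult KO (-1.15, limma adjusted p = 0.0224), where 9.98% were called. Plin5 was lower in aged than in adult WT (-1.83, limma adjusted p = 0.00300) and -0.27 with the batch term, which did not pass (limma adjusted p = 0.852). Plin2 was higher there (0.69, limma adjusted p = 0.0198), and 1.21 with the batch term, which did not pass (limma adjusted p = 0.183). Of 3 tested fatty acid-binding proteins, Fabp4 alone passed. Fabp5 differed by -0.79 for aged KO minus aged WT (limma adjusted p = 0.0603), and Fabp3, the muscle form, by -0.47 for aged minus adult WT (limma adjusted p = 0.0633).

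Markers of endothelial cells and macrophages, which also make Fabp4, were read as well. Of 16 tested endothelial markers, 8 were lower and 1 higher in aged KO than in aged WT, where 12.5% of tested genes were lower and 16.9% higher. In the model with the batch term 4 were lower and 0 higher, where 5.49% of tested genes were called in either direction. Their summed intensity over 17 genes was 8323 to 10452 in aged KO, against 12593 to 14560 in aged WT. In adult muscle 14 were lower and 0 higher in KO (9.37% and 7.32% of tested genes). With the batch term 11 were lower and 0 higher there, where 6.67% of tested genes were called in either direction. The sums in adult KO were 7830 to 11151, against 19180 to 24385 in adult WT. Sox18, an endothelial transcription factor, was lower in adult KO (-1.45, limma adjusted p = 1.25e-05), with -1.27 under the batch term (limma adjusted p = 0.00138). Of 15 tested macrophage markers limma called none in aged KO against aged WT (29.5% of tested genes), with 2 at an unadjusted p under 0.05 (41.2%). Their sums overlapped, at 13397 to 27022 in aged KO and 6480 to 23791 in aged WT. In aged against adult WT 7 macrophage markers were higher, where 18.1% of tested genes were. Under the batch term limma called 0 there (0.0941% of tested genes), and 8 had an unadjusted p under 0.05. The share of all tested genes for that last count is not given here. Within groups, r with Fabp4 was below 0 for 9 of the 16 endothelial markers and above 0 for 7. It was below 0 for 12 of the 15 macrophage markers and above 0 for 3. The part of these cells in the Fabp4 result was not tested.

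Other tissues that can come with a dissected muscle were read in the same way. Of 4 tested tendon markers limma called none in any comparison in the model without the batch term. At most 1 had an unadjusted p under 0.05, where 23.3% to 48.8% of tested genes did. With the term 1 was lower in aged KO than in aged WT, the matrix protein Comp (-2.74, limma adjusted p = 0.0325), where 5.49% of tested genes were called. Of 11 tested fat progenitor and fibroblast genes 2 were higher and 2 lower in aged KO than in aged WT (16.9% and 12.5% of tested genes). With the term limma called 0 of these 11, and 4 had an unadjusted p under 0.05, for which the share of all tested genes is not given here. Col1a1 fell by 4.78 in aged relative to adult WT (limma adjusted p = 6.67e-05), with -1.37 under the batch term (limma adjusted p = 0.319). Of 4 tested brown fat genes, Cox7a1, a heart and muscle subunit of cytochrome oxidase, passed once, lower in aged than in adult KO (-0.51, limma adjusted p = 0.0202), and was -0.59 with the batch term (limma adjusted p = 0.0288). Of 4 tested nerve and Schwann cell markers 3 were higher in aged KO than in aged WT, where 16.9% of tested genes were, among them the myelin gene Mbp (1.20, limma adjusted p = 0.00733). Under the batch term limma called 0 of the 4, none had an unadjusted p under 0.05, and Mbp was 0.85 (limma adjusted p = 0.317). Both tested blood cell genes were lower in aged KO, with or without the batch term. Of all tested genes 12.5% were lower without the term, and 5.49% were called in either direction with it. The difference of Hbb-b2 was -4.19 (limma adjusted p = 0.00108), and -6.45 with the term (limma adjusted p = 0.00986).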

How the data were processed

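One array per sample measured RNA of mouse tibialis anterior in 4 groups. The deposited table holds intensity values on a linear scale, for which the submitters' processing notes name MAS5, without a version. Detection calls were not used. Of 22690 probe sets, 20380 had 1 gene symbol in the platform annotation, 691 several and 1619 none, and the last 2 kinds were left unnamed. Values became log2(value + 4.76), the pseudocount being percentile 10 of all values, and were quantile normalized because array medians spanned 0.63 log2 units, above a limit of 0.5. Each gene was represented by its brightest probe set, and 7436 genes, the brighter 60% of 12393, were tested. Group means over all 19 arrays were fitted by lmFit and eBayes of the limma package, version 3.58.1, under R 4.3.3, a step checked on simulated data. Plots were drawn with matplotlib 3.10.9, and tables made with numpy 2.4.6 and pandas 2.3.3, under Python 3.11.15.

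The genes, lists and alternatives were chosen with earlier results of these data known, the labelling batch included. Named genes are Des, all listed adipocyte genes and up to 4 members of each further list with the smallest p. Also named are the 10 genes most like the mean of the tested ones, plus any listed gene among the nearest 50. Clone-style symbols were passed over, and exceptions are stated. Alternatives covered normalization, pseudocount, filter, probe set choice, variance model, array weights, groups in the fit, labelling batch, arrays of high Gapdh ratio, title codes as a block and each array left out. The number of arrays limits the precision.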

Additional observations from a re-analysis of the deposited data

Results flagged for a closer look

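In groups of 4 or 5 arrays, 3 of 44 checked sets of linear intensities had 1 array far from the others by Dixon's criterion. Chance flags about 1 of 20 groups where values are normally distributed, which linear intensities need not be. All 3 flags were high readings, and log2 values were not checked in this way. Adipoq read 703.208 on adult KO replicate 2, where the next highest of that group was 170.48. Scd1 read 1703.81 on aged WT replicate 4, where the next highest was 849.578. Lep read 33.0732 on aged KO replicate 1, where the next highest was 8.50961, both dim readings.

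The second brightest Fabp4 probe set differed between the genotypes in its age difference. The test of that difference, the genotype by age interaction, gave -1.92 on the log2 scale (limma adjusted p = 0.00544 over 20380 probe sets), and -1.22 with the batch term (limma adjusted p = 0.526). The brightest Fabp4 probe set gave an interaction of -0.63 that did not pass.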

How the results depend on the processing

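The fall of Fabp4 in aged KO muscle was called under every alternative that gave it a value except 3 (only arrays without control signal gave none): the batch term (-0.08), leaving out the arrays of high Gapdh ratio (-0.71), and both together (0.17), which gave 0 calls each. The causes of the changes below were not tested. For adult KO against WT the count of called genes was 2 with array weights (Adipoq -1.53 and Scd1 -1.23), and 1 (Fabp4) with the batch term and with both. For aged against adult WT it was 1 with median centring, trended variance, array weights or only the groups compared, and for aged against adult KO 2 with array weights. For the interaction it was 1 with median centring or the mean of probe sets and 2 with array weights. The share of all tested genes called under array weights, median centring, trended variance, only the groups compared or the mean of probe sets is not given here. The counts under these settings are therefore not read as results about these genes. With each array left out the count was 1 for aged KO against WT, 0 to 1 for aged against adult WT (1 without adult WT replicate 4 or 5 or adult KO replicate 1 or 5), 0 to 1 for aged against adult KO (1 without aged KO replicate 1), and 0 otherwise. 

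Signs turned mostly with the batch. For Adipoq the batch term gave -2.83 (aged KO minus WT), 1.66 (adult KO minus WT), -0.74 (aged minus adult KO) and -4.49 (interaction), for Fabp4 0.48 (aged minus adult KO), -0.31 (aged minus adult WT) and 0.78 (interaction), and for Scd1 -0.98 (aged KO minus WT) and -0.95 (interaction). Only arrays without control signal gave 1.66 and -0.74 for Adipoq and 0.48 for Fabp4 in those comparisons. Without the arrays of high Gapdh ratio the aged KO minus WT difference was -0.27 for Adipoq and -0.51 for Scd1, the Adipoq interaction -0.11 and the aged minus adult KO difference of Fabp4 0.20. With both changes Adipoq gave -3.30, 1.66, -1.21 and -4.97, Fabp4 0.17 (aged KO minus WT), 0.73, -0.31 and 1.04, and Scd1 -1.55, -1.52 (interaction) and -0.0932 (aged minus adult KO). Adult KO minus WT was 0.0114 for Adipoq with a pseudocount of 64, and for Fabp4 0.0761 with the mean of probe sets and 0.0172 with array weights. Scd1 for aged KO minus WT was -0.0578 with the mean of probe sets. With each array left out, Adipoq ran from -0.86 to 0.29 (adult KO minus WT), -0.11 to 0.55 (aged KO minus WT) and -0.0832 to 1.07 (interaction), Scd1 from -0.15 to 0.49 (aged KO minus WT) and Fabp4 from -0.23 to 0.0946 (aged minus adult KO). In the wider adipocyte list the alternatives, arrays left out included, gave 2 to 10 calls for aged KO against WT, where 8 were reported, and 1 to 16 for adult KO against WT, where 5 were. They gave 0 to 16 for aged against adult WT (11), 0 to 5 for aged against adult KO (0) and 0 to 10 for the interaction (7), the highest each time with array weights. The share of all tested genes called under array weights and most other alternatives is not given here. These ranges are therefore not read as results about the list. Sample titles end in number codes that the labels do not explain, and their first 4 digits recur on some arrays, in 1 case across both aged genotypes. With arrays sharing those digits as a random block (duplicateCorrelation) the call of none of Adipoq, Scd1 and Fabp4 changed in the 5 comparisons, and Fabp4 for aged KO minus WT stayed at -0.97 (limma adjusted p = 0.00686). No paired analysis was possible because the titles give codes and no replicate numbers that match arrays one to one between groups.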
